A study of Mus musculus with 3 samples.

Results

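Interferon-stimulated genes were described in 3 unstimulated mouse cell populations, from probe sets annotated to a single gene symbol, with the probe set of highest mean signal standing for each gene. Of 37 named genes, 35 had such a probe set, out of 18193 genes on the array, and Isg15 and Ifi44 are not analysed here. These 35 genes had 64 probe sets among 45037, and 17 of them had 2 or more. One Affymetrix array was hybridised per population, all of the C57BL/6 strain, with mRNA as the measured species. The ES cells were the B6N-22 line, kept with leukemia inhibitory factor on a layer of mouse embryonic fibroblasts that had been treated with mitomycin C. The B220 B cells and the CD4 T cells were splenic cells of mice aged 6 to 8 weeks, each enriched on magnetic beads to a stated purity above 98%. The labels give no interferon treatment or infection for any population, so the name of the gene class is its textbook name and no induction was part of the design. The ES sample is 1 cell line, and the number of mice behind each lymphocyte sample was not given in the sources used.

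Type I interferons bind a receptor made of IFNAR1 and IFNAR2, which activates the kinases JAK1 and TYK2. Phosphorylated STAT proteins then join IRF9 in a complex that binds a promoter element, the interferon-stimulated response element, and turns on antiviral genes. In resting immune cells a low tonic interferon signal is known to keep many of these genes expressed, whereas pluripotent stem cells are known to respond weakly to interferon and to rely on other antiviral defences.

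The signal unit was the linear probe set intensity deposited by the authors. The detection level was placed at 95.0, the 50th percentile over all 3 columns, and smaller signals were set to it for log2 differences. Where the dimmer array did not reach it, the fold is a lower limit given as "at least". A single array per population leaves no replicate error and allows no test, which limits the precision of each value. The available gauge of error was the disagreement of probe sets for the same gene. It is given as the SD of 1 probe set, which is the SD of the gap between 2 probe sets divided by the square root of 2. On the log2 scale this SD was 0.77 for T cells against ES cells and 0.76 for B cells against ES cells. For T cells against B cells it was 0.40. It was taken over the 5792, 5816 and 5329 genes whose 2 brightest probe sets were both measured, and 18 of the 35 members have 1 probe set and give no such check of their own.

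Markers bore out the 3 labels, and genes of other cell types were detected in each array. All 8 pluripotency markers were detected in ES cells and 1 of 8 in either lymphocyte array. The 7 B cell markers were all detected in B cells, 6 of 7 were in T cells and 2 in ES cells. Their summed signals were 110040 in B cells, 5929 in T cells and 760.8 in ES cells. The 8 CD4 T cell markers were all detected in T cells, 5 of 8 were in B cells and 1 in ES cells, with summed signals of 66644, 1045 and 250.8. Of 7 neutrophil markers 5 were detected in either lymphocyte array and 1 in ES cells, and their sums were 13963 in T cells, 7020 in B cells and 280.6 in ES cells. S100a8, with 8945 in T and 3966 in B cells, and S100a9, with 4451 and 2444, gave most of the lymphocyte sums. No other of the 7 exceeded 230.8 in any array, and Mpo was below the detection level in all 3. The ES cell array held all 14 fibroblast markers above that level, with a summed signal of 103170 against 8040 in B cells and 15254 in T cells. Of 14 macrophage markers the ES array had 8 above it, the B cell array 14 and the T cell array 13, with summed signals of 4371, 30285 and 72999. C1qc, Cd163, Mrc1, Itgam, Spic and Marco were below it in ES cells and Itgam in T cells. Fewer cells of a type and less RNA per cell cannot be told apart in such samples.

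The response element is shown first because it is what the class shares by name. Promoter windows of 300 bases, 250 before and 50 after the annotated start, were found in the RefSeq table of build GRCm38.p6 for 29 of the 37 genes. The core searched was GAAA, any 2 bases and GAAA again, on either strand, and 11 of the 29 genes (37.9%) had it in at least 1 window, as did 1079 of 27025 genes (3.99%) in the whole table. By window the shares were 12 of 37 (32.4%) and 1131 of 32851 (3.44%). The core of the gamma-activated sequence that STAT dimers bind, TTCNNNGAA on either strand, was present for 11 of 29 genes (37.9%) and 9.55% of all genes, and it overlapped the other core in 1 window of the class. Stretches around the matches are printed 5′ to 3′ on the gene's strand, with each match to the core in capitals, for Ifit1 (chr19:34640765-34640833, plus strand), Ifit3 (chr19:34583353-34583436, plus strand), Rsad2 (chr12:26456543-26456592, minus strand), Ifih1 (chr2:62646206-62646243, minus strand), Mndal (chr1:173880194-173880243, minus strand) and Bst2 (chr8:71537567-71537622, minus strand). They were chosen after their values were seen, as examples of the RNA sensors (Ifih1), the effectors (Ifit1, Ifit3, Rsad2 and Bst2) and the other induced genes (Mndal), and Bst2 is one whose signals differed little.
Ifit1: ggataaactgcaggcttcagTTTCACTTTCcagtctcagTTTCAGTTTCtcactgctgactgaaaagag
Ifit3: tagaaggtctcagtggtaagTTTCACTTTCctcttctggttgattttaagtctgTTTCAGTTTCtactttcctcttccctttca
Rsad2: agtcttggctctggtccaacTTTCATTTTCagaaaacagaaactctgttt
Ifih1: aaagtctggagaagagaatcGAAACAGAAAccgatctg
Mndal: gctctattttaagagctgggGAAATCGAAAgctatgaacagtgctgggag
Bst2: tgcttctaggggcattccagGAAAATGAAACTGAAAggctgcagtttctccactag
Ifit1 and Ifit3 each carried 2 separate copies, and Bst2 carried 2 that overlap in 1 run. The 10 analysed genes with the core had T cell minus ES cell log2 differences from 0.10 to 7.43 with a median of 3.09, and the 17 analysed genes with windows but no core had differences from -0.40 to 4.71 with a median of 3.22. The ranges of the groups with and without these letters overlapped.

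Interferon-stimulated genes were mostly near or below detection in ES cells and well above it in both lymphocyte populations. In ES cells 16 of 35 members were above the detection level, where 60.3% of all genes were, and in B cells 33 of 35, where 57.8% of all genes were. In T cells 34 of 35 were above it, against 56.8% of all genes. The ES cell array gave the lowest of the 3 signals for 33 members and the highest for 0, and the T cell array gave the highest for 24. This order includes signals below the detection level, and it was not counted over all genes. With smaller signals set to that level, T cells exceeded ES cells for 33 of 34 measured members and 5692 of 12325 measured genes. B cells exceeded ES cells for 32 of 33 and 5910 of 12463, and T cells exceeded B cells for 24 of 34 and 5115 of 11194. Of the members measured against ES cells, 18 of 34 in T cells and 17 of 33 in B cells had only the lymphocyte signal above that level. Their sign was fixed by the rule for a measured gene and adds nothing to these counts. Over all genes 3354 and 3450 were measured in 1 array only, in either direction. The exceptions to the low ES cell signal were Trim25, lowest in T cells, and Bst2, lowest in B cells.

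**Figure D1:**
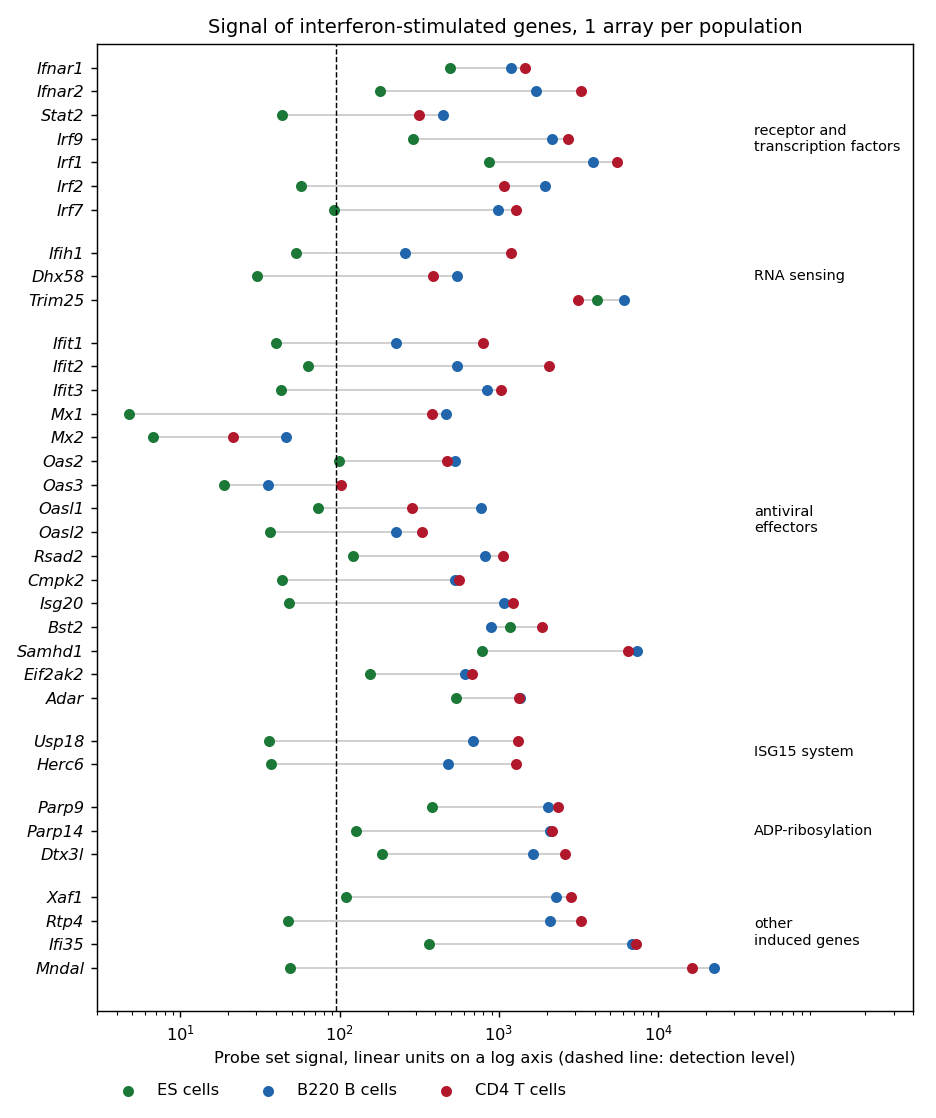
Probe set signals of the 35 analysed interferon-stimulated genes, grouped by role, on a log axis, with 1 point per array (ES cells green, B cells blue, T cells red) and the detection level of 95.0 as a dashed line. ES cells lie to the left for 33 genes, and 19 of their points are at or below the detection level.

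Against ES cells, 26 of the 35 members were 4-fold or more higher in T cells and 0 lower, where 10.8% of all measured genes were higher and 10.2% lower by as much. In B cells 25 of the 35 were higher and 0 lower, where 9.85% and 10.3% of measured genes were. Both comparisons use the same ES cell array. At 2-fold, 31 of 35 were higher and 0 lower in T cells, where 22.7% and 24.7% of measured genes were, and also 31 and 0 in B cells, where 21.1% and 24.6% were. In T cells 1 member was not measured and 18 were measured only because the T cell signal was above the detection level. In B cells these numbers were 2 and 17. The median log2 difference over all 35 members, with unmeasured members at 0, was 3.05 for T and 2.52 for B cells, and over all 18193 genes it was 0.0 in each. That 0.0 reflects the 5868 genes for T cells and 5730 for B cells that were unmeasured and placed at 0. Over measured genes alone the medians were 3.09 for members and -0.11 for all genes in T cells, and 2.52 and -0.07 in B cells. Scaling the arrays to a common 75th percentile moved the median of all measured genes from -0.11 to -0.42 in T cells and from -0.07 to -0.37 in B cells. Relative to that median the measured members stood at 3.20 and then 3.26 in T cells, and at 2.59 and then 2.76 in B cells. With a 65th percentile detection level the count in B cells was 14, and where every measured probe set of a gene had to differ the count in T cells was 16. Macrophage markers moved the same way, with 12 of 14 exceeding ES cells by 4-fold or more in the T cell array and 9 of 14 in the B cell array, and their part in the members' differences was not tested.

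**Figure D2:**
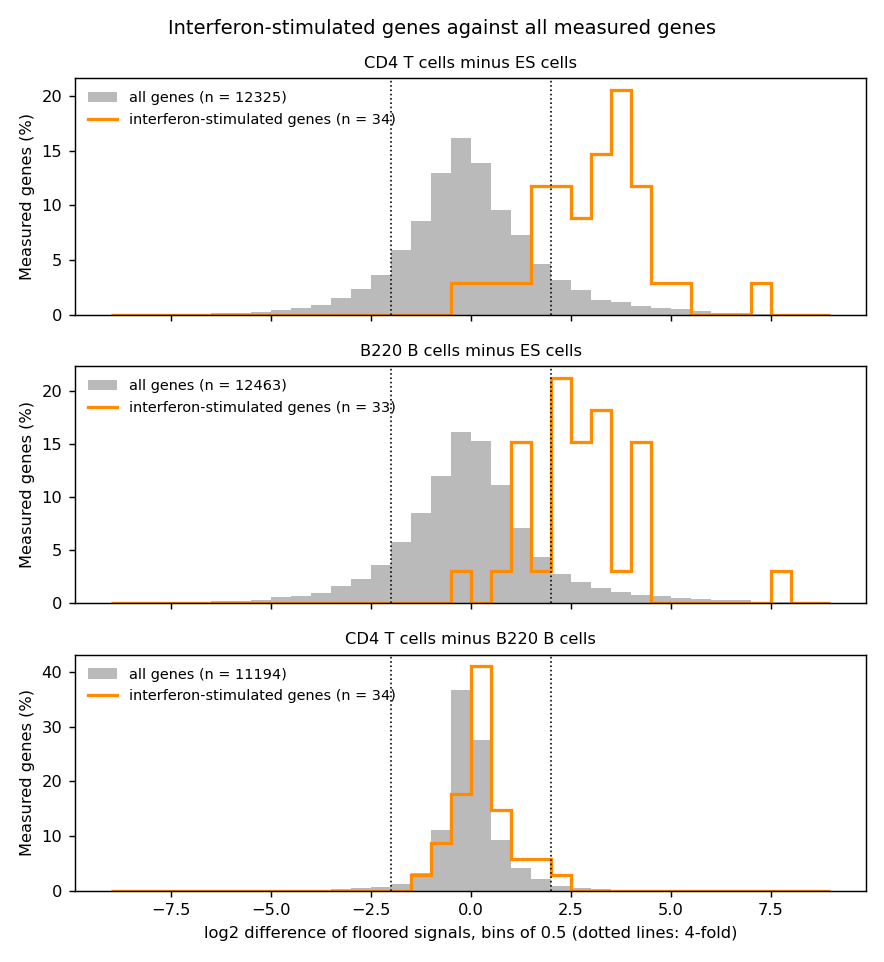
Distribution of log2 differences in bins of 0.5 for all measured genes (grey) and measured interferon-stimulated genes (orange), as a percent of each set, with dotted lines at 4-fold. Against ES cells the genes of the class lie mostly to the right of the 4-fold line, 26 of them for T and 25 for B cells, and between T cells and B cells they centre near 0 as all genes do.

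Receptor chains and transcription factors of the pathway came first in order of role. Ifnar1, one receptor chain, had signals of 495.9 for ES, 1188 for B and 1467 for T cells, so it was detected in all 3 and stood 2.96-fold above ES cells in T cells. Ifnar2, the chain that docks the STAT proteins, had 178.3 for ES, 1719 for B and 3268 for T cells. It was 18.3-fold higher in T cells and 9.64-fold in B cells than in ES cells by its brightest probe set, and 1.88 and 1.23 on the log2 scale by its lowest.

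Stat2, the STAT protein particular to interferon signalling of this type, had 43.7 for ES, 448.5 for B and 313.5 for T cells, at least 4.72-fold above ES cells in B cells and 3.30-fold in T cells. Irf9, its DNA-binding partner, was measured in all populations, with 289.0 for ES, 2145 for B and 2697 for T cells. It was 9.33-fold higher in T cells and 7.42-fold in B cells. Irf7, which amplifies type I interferon production, had 91.9 for ES, 991.7 for B and 1275 for T cells, and its ES cell signal lay just under the detection level. The difference was at least 13.4-fold in T cells and at least 10.4-fold in B cells.

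Irf1, an activator also induced by interferon gamma, had 864.7 for ES, 3921 for B and 5527 for T cells. Irf2, which competes with IRF1 for the same DNA element, had 57.4 for ES, 1937 for B and 1079 for T cells. Irf1 was therefore detected in ES cells and Irf2 was not, while the lymphocytes held both. Of these 7 genes 5 exceeded ES cells by 4-fold or more in T cells and 6 in B cells.

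The sensors of viral RNA differed among themselves. Ifih1, which encodes the double-stranded RNA sensor MDA5, had 53.2 for ES, 258.5 for B and 1199 for T cells, at least 12.6-fold above ES cells in T cells and 2.72-fold in B cells. Dhx58, which encodes the related helicase LGP2, had 30.1 for ES, 544.5 for B and 386.7 for T cells. Another of its probe sets had 3.0 for ES and 112.2 for T cells, which is near the detection level. Its T cell minus ES cell difference was at least 0.24 on the log2 scale, and that of the brightest at least 2.03. Trim25, a ubiquitin ligase of RIG-I signalling, was high in every array, with 4140 for ES, 6072 for B and 3138 for T cells. Its T cell minus ES cell difference was -0.40, smaller than the probe set SD of 0.77, and its 3 probe sets ranged from -1.25 to -0.05. In B cells the difference from ES cells was 0.55, also smaller than the SD of 0.76, with probe sets from -0.63 to 0.82.

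Among antiviral effectors, the Ifit genes encode proteins that bind foreign RNA and block its translation. Ifit1 had 39.7 for ES, 226.8 for B and 789.1 for T cells. Ifit2 had 63.7 for ES, 543.6 for B and 2060 for T cells, and Ifit3 had 43.1, 844.5 and 1028 in the same order. All 3 were below the detection level in ES cells. The bounds against ES cells were 8.31-fold, 21.7-fold and 10.8-fold in T cells and 2.39-fold, 5.72-fold and 8.89-fold in B cells for Ifit1, Ifit2 and Ifit3.

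The oligoadenylate synthetase family makes the messenger that activates RNase L, and its signals were modest. Oas2 had 98.8 for ES, 527.7 for B and 471.7 for T cells, a difference of 5.34-fold in B cells and 4.77-fold in T cells. Oas3 passed the detection level in T cells alone, at 102.1, with 18.8 in ES cells and 35.4 in B cells. Oasl1 and Oasl2 are relatives of the family, and Oasl1 is known to restrain Irf7 translation in the mouse. Oasl1 had 73.0 for ES, 772.9 for B and 284.7 for T cells, and Oasl2 had 36.6, 225.6 and 329.8. The higher lymphocyte signal was thus in B cells for Oasl1 and in T cells for Oasl2.

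The Mx genes encode dynamin-like GTPases that trap viral nucleocapsids, and C57BL/6 mice are known to carry a defective Mx1 allele. Mx1 had 4.8 for ES, 464.3 for B and 381.4 for T cells, which exceeded ES cells by at least 4.89-fold in B cells and 4.01-fold in T cells. The T cell difference of Mx1 and that of Oas2 fell short of 4-fold under quantile normalization, 75th percentile scaling and a 65th percentile detection level. The last of these gave lower limits of 0.64 for Mx1 and 0.95 for Oas2 on the log2 scale. With no floor and 16 added to each signal, the differences were 4.26 for Mx1 and 2.09 for Oas2. Mx2 was below the detection level in every array, with 6.7 for ES, 46.0 for B and 21.5 for T cells, and no fold is given.

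Rsad2, which encodes viperin, a radical SAM enzyme that makes a chain-terminating nucleotide, had 121.9 for ES, 816.2 for B and 1065 for T cells. Cmpk2, a nucleotide kinase that supplies the substrate of viperin, had 43.8 for ES, 527.5 for B and 562.5 for T cells. Isg20, an exonuclease, had 48.2 for ES, 1084 for B and 1232 for T cells. All 3 were at least 4-fold higher in either lymphocyte population, with Rsad2 detected in ES cells as well. The other Cmpk2 probe set was below the detection level in ES cells, at 26.3. It gave at least 0.64 in T cells and at least 1.12 in B cells on the log2 scale. The lowest of the 3 Rsad2 probe sets, also below that level in ES cells, gave lower limits of 1.87 and 1.01. For Cmpk2 in both populations and for Rsad2 in B cells, 4-fold was not reached with a 65th percentile detection level or with the mean or median probe set. Samhd1, which depletes deoxynucleotides, was also detected in all 3 arrays, with 782.4 for ES, 7335 for B and 6446 for T cells, 8.24-fold higher in T cells and 9.38-fold in B cells. On the log2 scale its 5 probe sets spanned 1.77 to 3.30 in T cells, where the probe set of median brightness gave the lowest of these, and from 1.83 to 3.93 in B cells. Of these values 3.30 and 1.83 are lower limits.

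Eif2ak2, Adar and Bst2 were detected in all 3 arrays. Eif2ak2, the kinase PKR that halts translation on double-stranded RNA, had 155.6 for ES, 613.8 for B and 676.0 for T cells, 4.34-fold higher in T cells, although the lowest of 3 probe sets for it reached 0.14 on the log2 scale. Adar, an RNA editing enzyme that marks self RNA, had 537.2 for ES, 1349 for B and 1330 for T cells, 2.48-fold higher in T cells. Bst2, also called tetherin, which holds budding virus at the cell surface, had 1172 for ES, 888.1 for B and 1867 for T cells. Its log2 difference from ES cells was 0.67 in T cells and -0.40 in B cells, smaller than the 0.77 and 0.76 of the probe set SD. In the ES cell array fibroblast markers were high beside these values, and their part in the ES cell signals was not tested.

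Genes of the ISG15 conjugation system were low in ES cells. Usp18, which removes ISG15 and dampens the receptor, had 36.1 for ES, 692.2 for B and 1325 for T cells. Herc6, the main ISG15 ligase in the mouse, had 37.1 for ES, 479.3 for B and 1286 for T cells. The T cell bounds were 13.9-fold for Usp18 and 13.5-fold for Herc6, and the lowest of the 4 Herc6 probe sets gave at least 1.38 on the log2 scale. Uba7, the activating enzyme of the same pathway and not in the class as listed, exceeded ES cells by at least 15.6-fold in T cells and 20.3-fold in B cells. Ube2l6, the conjugating enzyme, named here after its values were seen, had 92.4 for ES, 145.5 for B and 98.4 for T cells. It differed little, by at least 1.04-fold in T cells and 1.53-fold in B cells.

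Parp9, Dtx3l and Parp14 act in mono-ADP-ribosylation, and PARP9 and DTX3L form a complex. Parp9 had 382.1 for ES, 2027 for B and 2365 for T cells. Dtx3l had 185.8 for ES, 1630 for B and 2593 for T cells, and Parp14 had 126.3, 2093 and 2145. All 3 were detected in ES cells, so their folds are not bounds. They were 6.19-fold, 14.0-fold and 17.0-fold higher in T cells and 5.30-fold, 8.77-fold and 16.6-fold higher in B cells for Parp9, Dtx3l and Parp14. The other Parp14 probe set was below the detection level in ES cells, at 14.2. It gave lower limits of 1.94 on the log2 scale in T cells and 2.08 in B cells. In the RefSeq annotation Dtx3l lies next to both others on chromosome 16 with 0 protein-coding genes between. Ifit2 and Ifit3, Oas2 and Oas3, Oasl1 and Oasl2, and Rsad2 and Cmpk2 are likewise direct neighbours.

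The 4 remaining members were each at least 4-fold higher in both lymphocyte populations. Mndal, of the interferon-inducible DNA-binding IFI200 family, had 48.9 for ES, 22322 for B and 16327 for T cells, with log2 differences of 7.88 in B cells and 7.43 in T cells as bounds. Its other probe set of that symbol gave bounds of 7.69 and 7.25. Because the family has near-identical copies, cross-hybridization to its relatives cannot be told apart from Mndal in these signals.

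Rtp4, a Golgi chaperone of receptors, had 47.2 for ES, 2086 for B and 3272 for T cells, and Xaf1, a promoter of apoptosis, had 109.1, 2287 and 2855. Their brightest probe sets gave at least 5.11 for Rtp4 and 4.71 for Xaf1 on the log2 scale for T cells against ES cells. Their other probe sets were below the detection level in ES cells, at 20.0 and 82.4, and near it in T cells, at 100.4 and 107.1. Those gave lower limits of 0.08 and 0.17. Ifi35, a leucine-zipper partner of NMI, had 363.9 for ES, 6859 for B and 7217 for T cells, 19.8-fold higher in T cells, and its 3 probe sets lay between 3.32 and 4.31. The evidence for Ifi35 and Mndal therefore rested on concordant probe sets, and that for Rtp4 and Xaf1 on a single one.

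**Figure D3:**
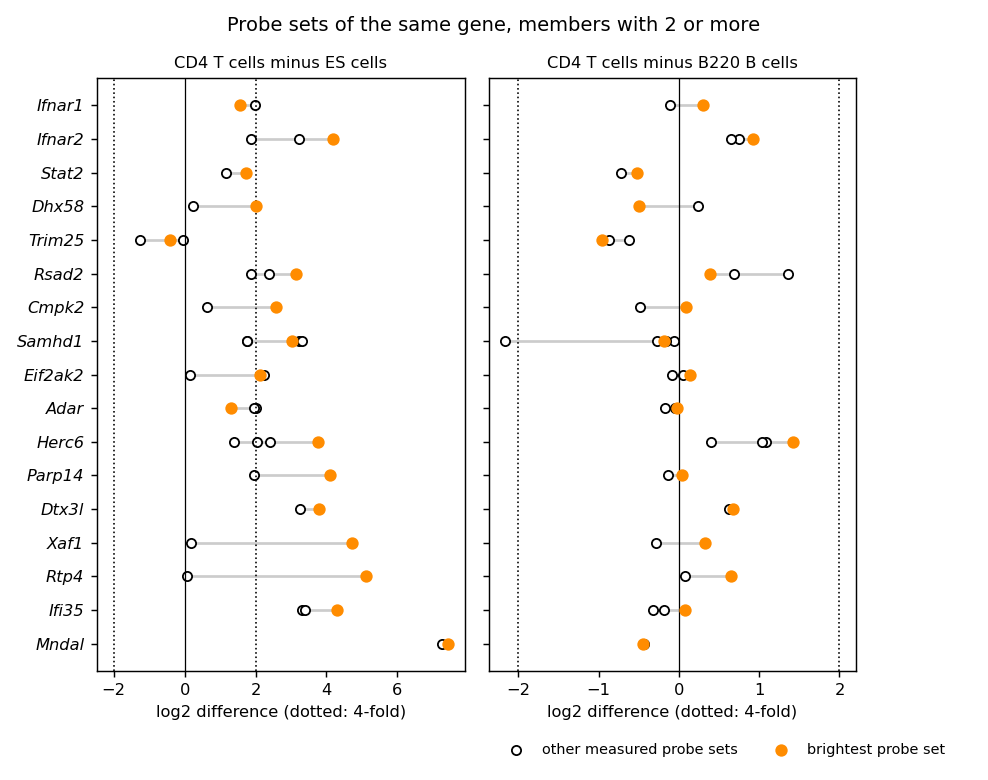
Log2 differences of all measured probe sets for the 17 members that have 2 or more, with the brightest probe set in orange and the others as open circles. For T cells against ES cells all 17 genes have probe sets of 1 sign with a median range of 1.54, and for T cells against B cells 10 of 17 do. Differences with 1 array below the detection level are lower limits, so part of the range against ES cells is set by that level.

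T cells and B cells differed by less than 2-fold for most members. Of the 35, 1 reached 4-fold in favour of T cells and 0 in favour of B cells, where 2.49% and 1.85% of all measured genes were. The median log2 difference of the 34 measured members was 0.25, with quartiles of -0.13 and 0.62, against -0.05 for all measured genes. For 17 of the 34 the difference was smaller than the probe set SD of 0.40, and the same held for 56.2% of all measured genes.

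The genes that differed by 2-fold or more, chosen after their values were seen, were Ifih1, Ifit2, Ifit1, Herc6 and Bst2 on the T cell side and Oasl1 on the B cell side. That is 5 of 35 higher, where 8.89% of measured genes were, and 1 lower, where 6.32% were. Ifih1 was 4.64-fold higher in T cells. Ifit2 was 3.79-fold higher and Ifit1 3.48-fold, while Ifit3, next to Ifit2 in the genome, was 1.22-fold higher. Herc6 was 2.68-fold and Bst2 2.10-fold higher, and all 4 Herc6 probe sets were higher in T cells, by 0.40 to 1.42 on the log2 scale. Oasl1 was 2.71-fold lower in T cells, and Trim25 was 1.94-fold lower, with 3 probe sets from -0.95 to -0.62.

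Macrophage and dendritic cell markers stood higher in the T cell array too. The 14 macrophage markers had a median T cell minus B cell log2 difference of 1.27, with 13 of 14 at least 2-fold higher. Of 8 measured dendritic cell markers 4 exceeded B cells by 2-fold or more and 1, Irf8, was 3.90-fold lower. Among markers of plasmacytoid dendritic cells, a major source of type I interferon that expresses Bst2 strongly, Siglech had signals of 336.8 in B against 834.4 in T cells. The part of these cells in the T cell signals of Ifih1, Ifit1, Ifit2, Herc6 and Bst2 was not tested.

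The rest of the pathway was read from 73 further genes. Against backgrounds of 10.8% higher and 10.2% lower in T cells and 9.85% and 10.3% in B cells, T cells exceeded ES cells by 4-fold or more for 41 of them and were lower by as much for 2, and the numbers in B cells were 39 and 3, with medians of 3.21 and 2.56 over the measured ones. The kinase gene Jak1 was 8.07-fold higher in T cells and 6.39-fold in B cells, with signals of 997.1 for ES, 6375 for B and 8051 for T cells. Tyk2 was 2.34-fold and 2.57-fold higher, although another of its probe sets gave -0.30 and -1.06 on the log2 scale. Psmb8, an immunoproteasome subunit, stood at least 93.8-fold above ES cells in T cells by its brightest probe set and 2.58 on the log2 scale by its other. Ifi27l2a was at least 109-fold higher and the GTPase genes Ifi47 and Igtp at least 91.0-fold and 88.4-fold.

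The Ifitm genes, whose products block virus entry at membranes, went the other way. Ifitm1 had signals of 6599 for ES, 360.4 for B and 784.4 for T cells, Ifitm2 had 4598, 221.2 and 645.6, and Ifitm3 had 9126, 1060 and 2616. The ES cell signal was the highest for each, by 8.41-fold, 7.12-fold and 3.49-fold over T cells and by 18.3-fold, 20.8-fold and 8.61-fold over B cells, and the sign was kept under quantile normalization and 75th percentile scaling. Ifitm1, Ifitm2 and Ifitm3 were the only genes among the 73 that were at least 4-fold lower in a lymphocyte population. Fibroblast markers were high in the same ES cell array, and their part in the Ifitm signals was not tested.

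Of 6 interferon genes, 4 were below the detection level in all 3 arrays and Ifng and Ifnz were not. Ifnb1 had 64.5 for ES, 71.5 for B and 65.4 for T cells, and Ifna1, Ifna2 and Ifna4 were the other genes below that level. Ifng, the type II interferon made by activated T and NK cells, had 28.5 for ES, 132.9 for B and 1205 for T cells, 9.06-fold above B cells in T cells. Of 8 markers of NK and CD8 T cells 4 were at least 2-fold higher in the T cell array and 2 lower, with summed signals of 4614 in B cells and 9302 in T cells. Klrd1 went from 590.2 to 2355 and Gzma from 1279 to 409.8, and Ncr1 was below the detection level in T cells. Their part in the Ifng signal was not tested. Ifnz had 154.0, 101.1 and 367.9.

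Between T cells and B cells, 4 of the 73 genes differed by 4-fold or more in favour of T cells and 1 in favour of B cells, where 2.49% and 1.85% of all measured genes did. The kinase gene Ikbke, which phosphorylates IRF3 and IRF7, was 14.4-fold higher in T cells, with 317.7 in B against 4577 in T cells. The interferon-gamma-induced GTPase gene Iigp1 was 8.17-fold higher with both probe sets above 3 on the log2 scale, and the feedback inhibitor gene Socs3 was 4.12-fold higher, with the lowest of its 3 probe sets at 0.99 on that scale. Irf5, a transcription factor of B cells and myeloid cells, was 5.56-fold lower in T cells by its brightest probe set whereas the other probe set was higher in T cells, by 0.21 on the log2 scale.

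**Figure D4:**
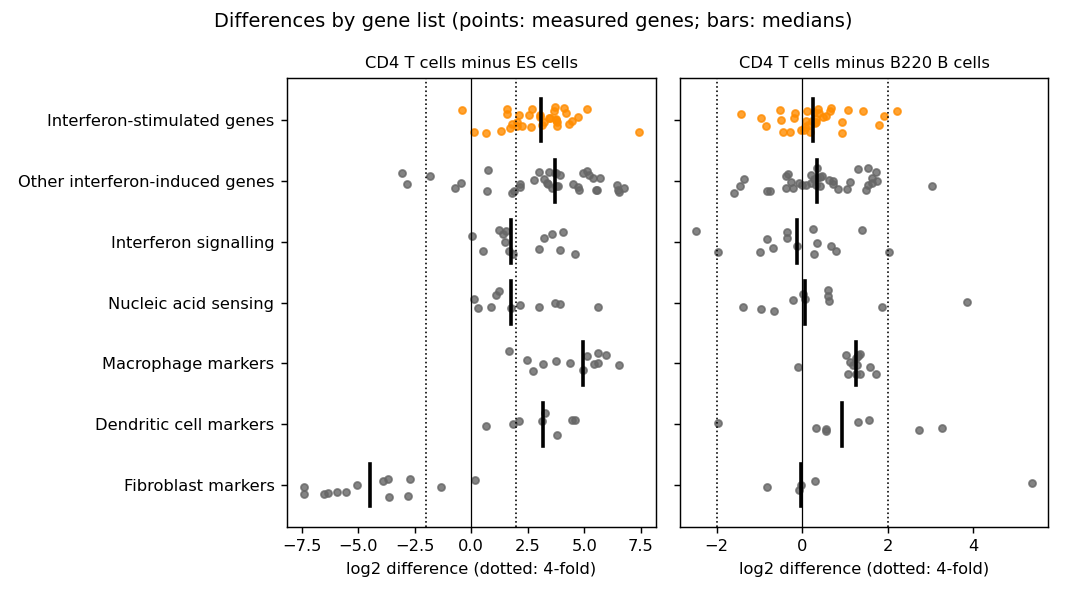
Log2 differences by gene list for T cells against ES cells (left) and T cells against B cells (right), with 1 point per measured gene, a bar at each median and dotted lines at 4-fold. The class has medians of 3.09 and 0.25, the macrophage markers 4.95 and 1.27, and the 3 points furthest left among the other interferon-induced genes in the left panel are the Ifitm genes.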

How the data were processed

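The authors deposited 1 column of linear intensity per array. Affymetrix Expression Console is named in the submitters' processing notes, while version, summarization, background treatment and scaling target were not given in the sources used here. Trimmed by 2%, the column means were 497.3, 497.8 and 497.7. Probe sets were named through GEO's platform annotation: 34945 had 1 symbol, 932 several and 9160 none. Of the 34945, 34741 had an Entrez ID in the RefSeq table of GRCm38.p6, and 0 symbols changed. The members and gene lists were chosen with earlier results of these data known. All analysed members are named. Other pathway genes could be named where at least 4-fold apart in any comparison, and Jak1, Tyk2 and the interferons regardless, with list entries lacking a probe set of 1 symbol not analysed here. A gene was measured where at least 1 of 2 arrays was above the detection level. The calculation was tested on simulated data. Alternatives were quantile normalization, 75th percentile scaling, a 65th percentile detection level, 16 added in place of a floor, other probe set rules and a 2-fold threshold. Computation used Python 3.11.15, numpy 2.4.6, pandas 2.3.3 and matplotlib 3.10.9.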

Additional observations from a re-analysis of the deposited data

How the results depend on the processing

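No paired analysis was possible because each population had 1 array. Against ES cells, 0 members were counted lower under any alternative run. The count higher in T cells, 26, ran from 20 to 31 under the other alternatives and was 16 where every measured probe set had to differ. Dhx58, Eif2ak2, Mx1 and Oas2 fell short under quantile normalization and 75th percentile scaling, these with Cmpk2 and Ifit1 under a 65th percentile detection level, and Cmpk2, Dhx58, Herc6, Parp14, Rtp4, Samhd1 and Xaf1 with the median probe set. In B cells, 25 ran from 18 to 31 and was 14 with a 65th percentile detection level, which lowers every bound. The median of measured members, 3.09 in T cells, was 2.29 with that detection level and 2.26 with the median probe set, and in B cells 2.52 became 1.74 with that detection level. Between T cells and B cells the count higher, 1, was 2 with quantile normalization, where Ifit2 joined Ifih1, and 5 at 2-fold. The count lower, 0, was 1 with the median probe set, which was Samhd1, and 1 at 2-fold, which was Oasl1. No called member changed sign under an alternative. With 75th percentile scaling 8.47% of all measured genes were higher in T cells than in ES cells and 13.5% lower. Precision is limited by 1 array per population and, for the 19 members at or below the detection level in ES cells, by the signal over background there.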

Other observations

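A probe set that lists Isg15 together with Gm9706, and so was assigned to neither gene, had signals of 121.0 for ES, 637.1 for B and 1102 for T cells. A probe set that lists Mndal together with 3 relatives of the IFI200 family had 16.1, 6956 and 7591 in the same order. These values enter no count above.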
